A study of Arabidopsis thaliana with 10 samples.

Results

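The organ boundary genes described here are the NAC genes *CUC1* (AT3G15170), *CUC2* (AT5G53950) and *CUC3* (AT1G76420), the MYB gene *LOF1* (AT1G26780), the ALOG genes *LSH3* (AT2G31160) and *LSH4* (AT3G23290), the BTB-ankyrin genes *BOP1* (AT3G57130) and *BOP2* (AT2G41370), and the GRAS gene *LAS* (AT1G55580). They were chosen by their locus identifiers, with earlier results of these data known. They make up 9 of the 33851 genes in the table of expression values deposited with the study. The authors grouped 25883 of these genes by *k*-means clustering of their expression profiles, and all 9 organ boundary genes were among them. The study sequenced mRNA from shoot apical meristem (SAM)-enriched tissue of *Arabidopsis thaliana* seedlings, to compare meristems that enlarge through different pathways. The 10 libraries covered 5 genotypes at 8 and 15 days of age: the single mutants *clv3-2* and *jba-1D/+*, the double mutant *jba-1D/+ er-20*, the triple mutant *jba-1D/+ er-20 clv3-2*, and wild-type Col-0. In *clv3-2* the stem cell-derived peptide CLV3 is impaired, *jba-1D/+* plants make too much of the microRNA from *MIR166g*, and *er-20* is a mutation of the receptor-like kinase gene *ERECTA*. Each genotype and age was represented by 1 library made from a pool of SAM-enriched tissue, leaf primordia included, with no replicate. No library carried *er-20* without *jba-1D/+*.

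The table gave the values of the 10 libraries under headings that match none of the sample labels, so levels by genotype or age, and the depth of the libraries, were not analysed here. What the table does give for each gene is its cluster. Genes in one of the 1000 clusters were those whose profiles over the 10 libraries were grouped together by centered correlation, whatever their level. A cluster number is only a name. It holds no level, no direction of change and no order, and it does not tell whether fewer boundary cells or less transcript per cell lay behind a profile. Nor does it tell how alike the profiles of genes in different clusters were, which was not measured.

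An organ boundary is the narrow band of slowly dividing cells that separates the meristem from each new leaf and one leaf from the next. The CUC transcription factors mark this band, and plants that lack them fuse their cotyledons and fail to form a shoot meristem. Axillary meristems later arise from the boundary in the leaf axil. The microRNA miR164 restricts *CUC1* and *CUC2* by cleaving their transcripts, whereas *CUC3* is not a target.

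The miR164 site was present in *CUC1* and *CUC2* and in none of the other 7 organ boundary genes. It is shown because *CUC1* and *CUC2* fell into different clusters. The mature microRNAs, read 5′ to 3′ from the TAIR10.1 genome with the seed (bases 2 to 8) in capitals, are given first. The sites in the transcripts follow, with capitals for the bases that differ from a perfect complement of miR164a.
miR164a and miR164b: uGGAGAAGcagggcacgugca
miR164c: uGGAGAAGcagggcacgugcg
*CUC1*, chr3:5111137-5111157, plus strand: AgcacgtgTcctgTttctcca
*CUC2*, chr5:21902301-21902321, minus strand: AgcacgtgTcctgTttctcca
*CUC3*, best match, chr1:28672053-28672073, minus strand: CAcaTgCTAcTAgAttctcca
The mature miR164a and miR164b were identical, and miR164c differed from them at 1 base. The sites of *CUC1* and *CUC2* were identical to each other and differed from the complement at 3 of 21 positions. Both lay in the coding part of exon 3. *CUC3* had no such site, since its best match differed at 9 of 21 positions. The best matches of the other 6 genes differed at 6 to 10 positions. *LSH4* had the fewest differences of these 6, with 6, and *LOF1* the most, with 10.

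The identity of the site extended only 1 base further. The longest run that the coding sequences of *CUC1* and *CUC2* had in common was 22 bases, at coding positions 634 to 655 of *CUC1* and 772 to 793 of *CUC2*. It is shown because it consists of the miR164 site, here in lower case, and 1 base before it.
*CUC1* and *CUC2*: gagcacgtgtcctgtttctcca
*CUC1* and *CUC3* shared a run of 23 bases elsewhere, from coding position 418 of *CUC1*. When the coding sequences of *CUC1* and *CUC2* were aligned, 652 bases were identical, or 57.8% of the 1128 bases of *CUC2*, the longer of the pair.

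**Figure D1:**
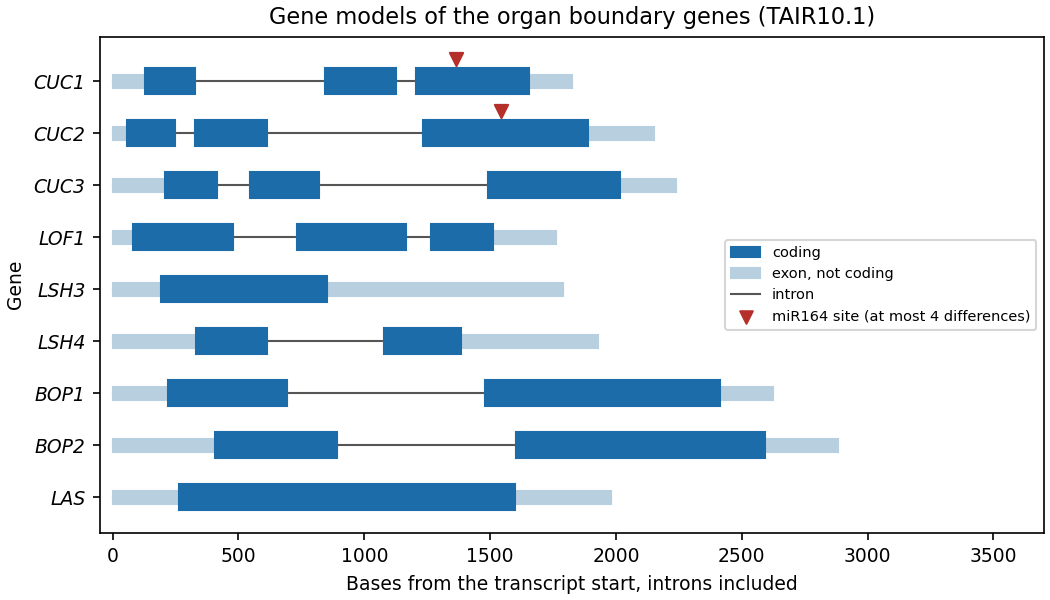
Exons (bars) and introns (lines) of the organ boundary genes in the TAIR10.1 annotation, drawn to scale in bases from the transcript start, with a triangle at a miR164 site of at most 4 differences. The longest coding transcript of each gene is drawn, and the triangles sit in exon 3 of *CUC1* and *CUC2* alone.

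In TAIR10.1 the 3 *CUC* genes had 3 exons each. *CUC1* lies at chr3:5109782-5111608 on the plus strand with 933 coding bases. *CUC2* lies at chr5:21901704-21903854 on the minus strand with 1128 coding bases. *CUC3* lies at chr1:28671806-28674045 on the minus strand with 1005 coding bases. *LOF1*, at chr1:9270952-9272713 on the plus strand, also had 3 exons, with 1080 coding bases. The ALOG genes were short, with 660 coding bases in 1 exon for *LSH3* (chr2:13277710-13279498, plus strand) and 588 in 2 exons for *LSH4* (chr3:8326628-8328557, plus strand). *BOP1* (chr3:21147558-21150238, plus strand) and *BOP2* (chr2:17237727-17240609, minus strand) had 2 exons each, with 1404 and 1476 coding bases. *LAS* (chr1:20763844-20765823, plus strand) had 1338 coding bases in 1 exon.

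The 9 genes fell into 6 clusters. *CUC2* and *LSH4* were both in cluster 941, which held 49 genes. *CUC3* and *BOP1* were both in cluster 937, which held 41 genes. *LOF1* and *LSH3* were both in cluster 0, which held 51 genes. *CUC1*, *BOP2* and *LAS* were each the only organ boundary gene in their clusters, which were cluster 605 with 42 genes, cluster 125 with 40 genes and cluster 440 with 71 genes. Thus 3 of the 36 pairs of organ boundary genes shared a cluster, or 8.33%, whereas 0.226% of all 334951903 pairs of clustered genes did. As the 9 genes were chosen with earlier results of these data known, these shares are a description, and no test was made. The 6 clusters were larger than the median cluster. They held 40 to 71 genes, the median cluster held 19, and 153 of the 1000 clusters held 40 or more. This compares clusters and not genes, and large clusters hold more of the genes, so it is not a trait of the 9 genes.

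**Figure D2:**
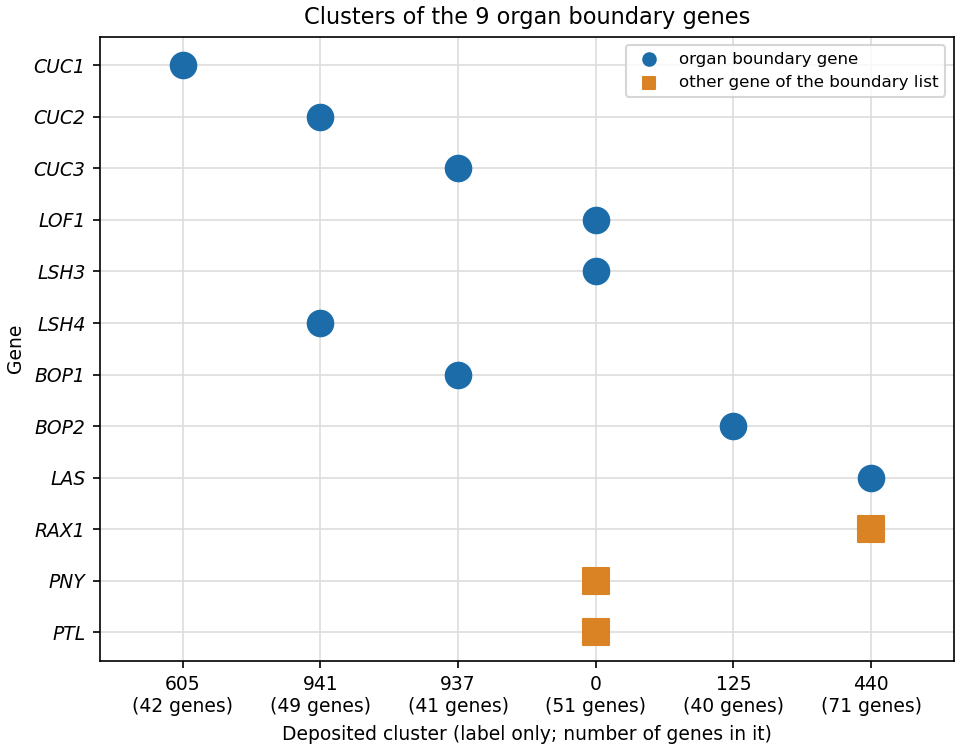
Clusters (columns, with the number of genes in each) that held the 9 organ boundary genes (circles) and the 3 genes of a list of other boundary genes that were in the same clusters (squares). Columns 941, 937 and 0 hold a pair of circles each, and each pair joins genes of different families. The order of the columns has no meaning.

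Among the 9 genes, the pairs that shared a cluster were of different families. The 9 genes make up 5 pairs of the same family, namely the 3 pairs of *CUC* genes, *LSH3* with *LSH4*, and *BOP1* with *BOP2*, and 0 of these 5 pairs shared a cluster. Since 0.226% of all pairs did, a count of 0 in 5 is near the background. All 3 pairs that did share a cluster were among the 31 pairs of different families. The difference between same-family and other pairs was not tested. *CUC1* and *CUC2*, which act redundantly in separating the cotyledons and carry the same miR164 site, were in clusters 605 and 941. *BOP1* and *BOP2*, which act redundantly at the leaf base, were in clusters 937 and 125. *LSH3* and *LSH4*, both activated by CUC1, were in clusters 0 and 941.

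Coding identity is given as identical bases in percent of the longer coding sequence, where no other measure is named. It was 56.4% to 77.0% within the 5 pairs of the same family and 27.4% to 52.7% in the 31 other pairs. It was 35.2% to 42.7% in the 3 of these other pairs that shared a cluster. This measure is held down where lengths are unequal. In percent of the aligned bases the groups overlapped, with 64.2% for *CUC1* and *CUC3* and 72.7% for *LSH3* and *LAS*. A relative outside the 9 genes, *LSH5*, was picked with the cluster contents known. It was 61.1% identical with *LSH4*, in the same cluster 941, and 57.3% identical with *LSH3*, in cluster 0. The *BOP* genes were the most alike, at 77.0%, followed by *LSH3* and *LSH4* at 63.9%. *CUC3* was 57.4% identical with *CUC2* and 56.4% with *CUC1*. The longest run that *BOP1* and *BOP2* shared was 32 bases, at coding positions 535 to 566 and 550 to 581. It is shown because it is shorter than an untrimmed read of these libraries.
*BOP1* and *BOP2*: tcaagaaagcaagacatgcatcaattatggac
The longest run shared by *LSH3* and *LSH4* was 11 bases.

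**Figure D3:**
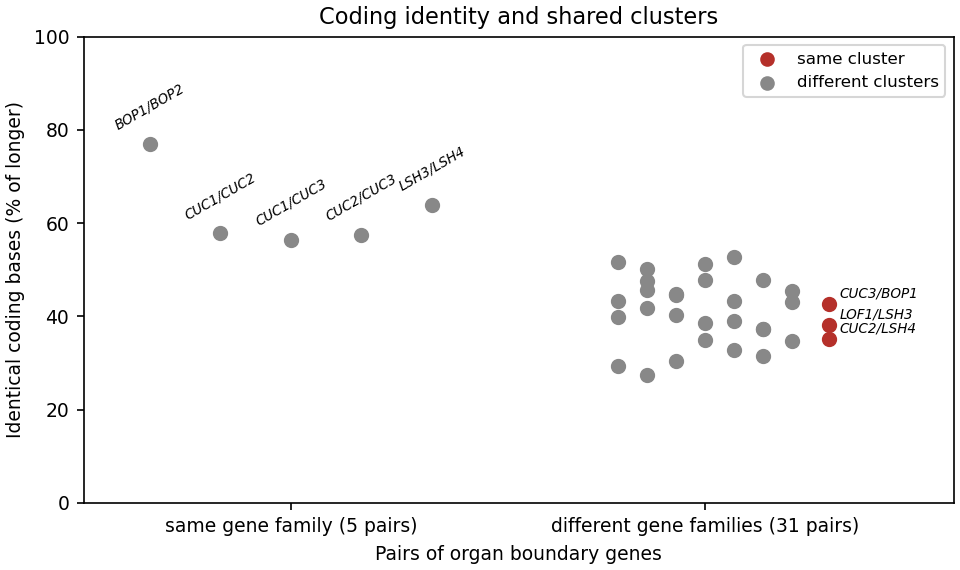
Identical coding bases, as a percentage of the longer coding sequence, for the 36 pairs of organ boundary genes, by whether the genes are of the same family. The 5 pairs of the same family lie between 56.4% and 77.0% and none shares a cluster. The 3 pairs that share a cluster lie between 35.2% and 42.7%.

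By exact matches over a full read, the assignment of reads to these genes was in question for *BOP2* alone. The reads were 51 bases long before trimming. Of the runs of 51 bases in the transcripts of the other 8 genes, 0 occurred in the transcripts of another gene. In *BOP2*, 297 of 2124 such runs, or 14.0%, also occurred in AT2G41375, an annotated gene on the opposite strand (chr2:17238380-17238986, plus strand) that overlaps *BOP2* over its 607 bases. AT2G41375 was not among the genes with a cluster. The library kit is not stated to keep the strand, so reads from the overlap cannot be told apart. Its part in the separate clusters of *BOP1* and *BOP2* was not tested. Of the shorter runs of 31 bases, *BOP1* shared 2 of 1975 with other genes, so trimmed reads could be less certain. Reads with mismatches were not considered.

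None of these genes was next to a gene of its own cluster. The nearest clustered gene on each side of each organ boundary gene gave 18 neighbors, 3 to 11209 bases away, and 0 of the 18 were in the cluster of their organ boundary gene. Over the genome, 1.03% of 25166 pairs of neighboring clustered genes shared a cluster, so a count of 0 in 18 is near the background. *BOP1*, in cluster 937, had the nearest neighbor, *SDP1-LIKE* in cluster 758 at a distance of 3 bases. Each of the 6 clusters had genes on all 5 chromosomes.

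The clusters were next searched for other genes of the boundary pathway. Of a list of 33 such genes and regulators, 31 had a cluster. EXB1 was not found under that symbol, and *MIR164A* had no cluster. Of these 31 genes, 3 were in a cluster with an organ boundary gene, or 9.68%, whereas 285 of all 25874 other clustered genes, or 1.1%, were. The list too was chosen with earlier results of these data known, so this difference was not tested. *RAX1*, a MYB gene that like *LAS* is needed to form axillary meristems, was in cluster 440 with *LAS*. *PNY*, a BELL homeodomain gene of meristem and stem patterning, and *PTL*, a trihelix gene that limits growth between sepals, were both in cluster 0 with *LOF1* and *LSH3*. Cluster 0 thus held 4 genes of the boundary or its regulation. The *PNY* and *PTL* pair was also the only 1 of the 465 pairs within the list that shared a cluster.

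The other 28 genes of the list were spread over clusters without an organ boundary gene. Of all other clustered genes, only 1.1% were in the clusters of the organ boundary genes, and 0.226% of all pairs shared a cluster. Such separation is therefore near the background. *LOF2*, the closest relative of *LOF1* with 67.9% coding identity, was in cluster 94. The KNOX genes, which maintain meristem cells, were each in a different cluster, with *STM* in cluster 637, *KNAT1* in 844, *KNAT2* in 53 and *KNAT6* in 111. *KNAT6* and *STM* therefore shared no cluster with any *CUC* gene. *ATH1*, a BELL gene of the stem boundary, was in cluster 458. The LBD genes *LOB*, *JLO* and *AS2* were in clusters 306, 848 and 326, and *AS1*, whose product acts with AS2 in leaves, was in cluster 929. The *RAX1* relatives *RAX2* and *RAX3* were in clusters 763 and 166, away from *LAS*. The TCP genes, whose products repress the *CUC* genes in leaves, were in clusters 672 (*TCP2*), 158 (*TCP3*), 529 (*TCP4*), 842 (*TCP10*) and 243 (*TCP24*). The ALOG genes *LSH1*, *LSH2* and *LSH10* were in clusters 104, 185 and 343. Regulators of floral organs and their boundaries were likewise apart, with *PAN* in cluster 936, *RBE* in 213, *UFO* in 687 and *HAN* in 964. The AP2 genes *DRN* and *DRNL*, which act in organ initiation, were in clusters 287 and 6.

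*MIR164B* was in cluster 966, with 237 genes, and *MIR164C* in cluster 908, with 42 genes, whereas *CUC1* and *CUC2* were in clusters 605 and 941. As 0.226% of all pairs of genes shared a cluster, their separation is near the background. These libraries were made from mRNA, so such a value is that of the precursor gene. *MIR166g*, the gene that *jba-1D/+* overexpresses, was in cluster 847 with 16 genes, none of them an organ boundary gene. Its mature product is shown because the best match to it in each of the 9 transcripts differed from a perfect complement at 8 to 10 positions, so no site like that of miR164 was found for it.
miR166g: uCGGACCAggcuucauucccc

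A search of the transcripts of 37880 genes for the miR164 site put *CUC1* and *CUC2* among 14 genes, the *MIR164* genes left out, with at most 4 differences, 13 of which had a cluster. These 13 genes fell into 12 clusters. With at most 3 differences there were 6 genes, all encoding NAC proteins. *NAC1*, *NAC080* and *NAC100* had 2 differences and were in clusters 511, 612 and 404. *CUC1*, *CUC2* and AT3G12977, which RefSeq lists as a NAC gene, had 3. The only site genes in the same cluster were *CUC2* and AT3G12977, both in cluster 941, and the site of AT3G12977 is shown for comparison.
AT3G12977, chr3:4145631-4145651, plus strand: AgcaTgtAccctgcttctcca
Its 3 differences from the complement of miR164a fell at other positions than those of *CUC2*, except for the first base.

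Cluster 941, with *CUC2* and *LSH4*, also held *LSH5*, another ALOG gene. As with *LSH5* above, companion genes from here on were picked for mention with the cluster contents known. All 10 *LSH* genes of the table had a cluster, and 2 of their 45 pairs, or 4.44%, shared one, namely *LSH4* with *LSH5* in cluster 941 and *LSH2* with *LSH9* in cluster 185. Of the 5356 pairs of the 104 clustered genes annotated as NAC-domain genes, 16 shared a cluster, or 0.299%, against 0.226% of all pairs. Cluster 941 further held *ARF10*, an auxin response factor gene, *SRS4* and *SRS5*, of the SHI family of developmental regulators, and the embryo regulator *FUS3*. It also held genes for secreted signals, *CLE12* of the CLV3 family and *EPFL4*, whose product is a ligand of the ERECTA receptor. *GH3.17*, for an enzyme that conjugates auxin to amino acids, was in it as well.

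Cluster 937, with *CUC3* and *BOP1*, held *WAG2*, for a kinase that acts on auxin transporters of the PIN family, and *GA2OX7*, for an enzyme that inactivates gibberellin. It also held *EGL3*, a bHLH gene of trichome formation, and *ACO1*, for an enzyme of ethylene synthesis. Cluster 605, with *CUC1*, held *ANT*, an AP2 gene that promotes organ growth, *LUG*, for a transcriptional corepressor, and *LOG3*, for a cytokinin-activating enzyme. Cluster 125, with *BOP2*, held *PIF5*, a bHLH gene of the light response.

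Cluster 440, with *LAS* and *RAX1*, held *IPT5*, for an enzyme of cytokinin synthesis, *GA2OX8*, for another enzyme that inactivates gibberellin, and *BB*, for a ubiquitin ligase that limits organ size. It also held the NAC genes *NAC047* and *NAC052*, *LBD19* and *GH3.3*. Of the 18 clustered *GH3* genes, 3 were in the clusters of the organ boundary genes, namely *GH3.17* in 941, *GH3.2* in 0 and *GH3.3* in 440. Of the 8 *GA2OX* genes, 2 were, in clusters 937 and 440. The share of all other clustered genes in these 6 clusters was 1.1%, but these families were picked because members had been seen there, so the counts are a description.

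Genes annotated as transcription factors were unevenly spread over the 6 clusters. In cluster 0, with *LOF1* and *LSH3*, 10 of the 43 other genes with an annotation, or 23.3%, were described as transcription factors. They included *PNY*, *PTL*, *MYB27*, *MYB69*, *GATA5*, *NF-YA9* and *SOG1*, the last of them the NAC gene of the DNA damage response. In cluster 941, with *CUC2* and *LSH4*, it was 7 of 39, or 17.9%, among them *ARF10*, *SRS4*, *SRS5* and *FUS3*. Cluster 440, with *LAS*, had 6 of 60. The other clusters had 2 of 27 with *CUC3* and *BOP1* (7.41%), 2 of 31 with *BOP2* (6.45%) and 2 of 34 with *CUC1* (5.88%). Over all annotated clustered genes other than the 9, it was 1043 of 20691, or 5.04%. The terms that counted as a transcription factor were also chosen after the annotations had been seen, and no test was made. The counts depend on the wording. Dof zinc finger genes (*CDF2* and *TMO6*, cluster 440) and C2H2 zinc finger genes (AT5G10970, cluster 0, and AT3G60580, cluster 941) were not counted. *ANT*, in cluster 605, had no annotation and was not counted either.

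**Figure D4:**
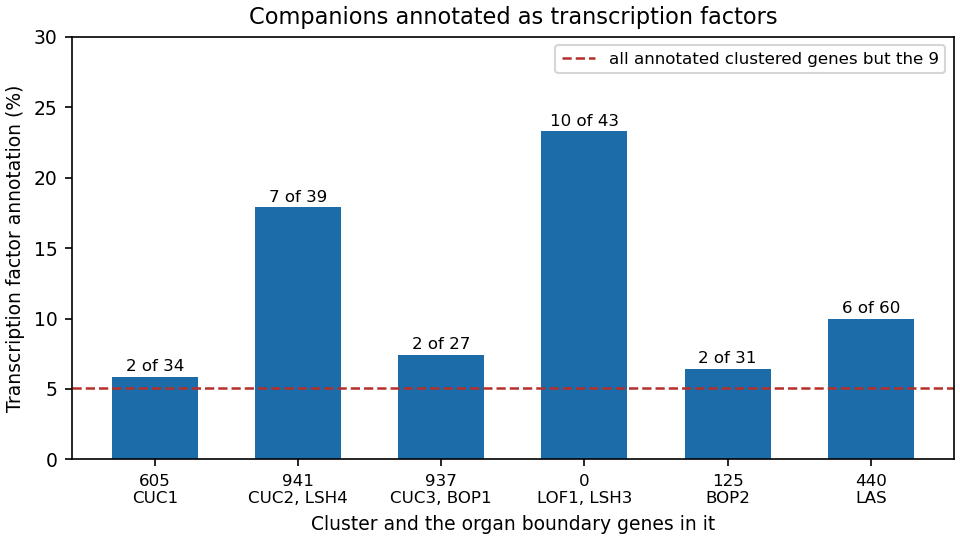
Percentage of the annotated genes in each cluster, the organ boundary genes left out, that are annotated as transcription factors, with the counts above the bars and the share of all annotated clustered genes but the 9 as a dashed line at 5.04%. Cluster 0 (23.3%) and cluster 941 (17.9%) stand highest.

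Markers of cell types of the shoot and of the root were not in these clusters. *STM*, *KNAT1* and *AS1* were counted here and also on the list of other boundary genes above. Of 30 markers of the meristem, young leaf, photosynthetic cells, vasculature, epidermis, flower and root, 29 had a cluster, and 0 of the 29 were in a cluster with an organ boundary gene, against 1.1% of all other clustered genes. A count of 0 in 29 is near that background.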

How the data were processed

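mRNA was measured in 10 libraries of SAM-enriched tissue, prepared with the TruSeq-RNA kit and sequenced single-end. Per the submitters' processing notes, the authors used Trimmomatic 0.32 for trimming, TopHat2 2.0.12 with Bowtie2 2.1.0 for alignment (TAIR10) and Cuffdiff 2.2.1 for quantification. They clustered the resulting RPKM values by *k*-means with 1000 clusters and centered correlation in Gene Cluster. From the deposited table only the cluster labels and annotations were used. Its 10 columns of values could not be matched to samples and were not used, so the planned tests of genotype and age, and the genes of most similar profile, are not reported. Profiles of weakly expressed genes are noisy, which makes their clusters less certain, and this could not be weighed.

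The 9 genes and the gene lists were chosen with earlier results of these data known. The genes named are the 9, the listed boundary genes with their clusters, and genes chosen after the clusters were seen. Of the 33851 loci, 31334 were found in TAIR10.1 (RefSeq), as were 25171 of the 25883 with a cluster. Positions and sequences are from TAIR10.1, as the table holds no coordinates. MicroRNA sites were ungapped matches in transcripts with at most 4 differences, G:U pairs counted as differences. Coding sequences were aligned globally with Biopython 1.88. Calculations used Python 3.11.15, numpy 2.4.6 and pandas 2.3.3, figures matplotlib 3.10.9, and the counts were tested on simulated data.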

Additional observations from a re-analysis of the deposited data

How the results depend on the processing

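Leaving out clusters of over 100 genes, or keeping protein-coding genes alone, could not change the 3 pairs of organ boundary genes in the same cluster or the 3 other boundary genes in their clusters, since these clusters hold 40 to 71 genes and the genes counted are protein coding. Both settings moved only the background, to 0.146% and 0.187% of all pairs, and, added after seeing the data, to 1.26% and 1.16% of all other genes. Also added after seeing the data, a limit of at most 3 differences gave 6 genes with a miR164 site and a limit of 5 gave 71, against 14 with at most 4, and runs of 31 bases were shared with another gene by 2 organ boundary genes, against 1 for runs of 51 bases. The alternatives planned for the tests of genotype and age and for the profiles were not run, since the columns of values could not be matched to samples. The design pairs the ages within each genotype, but no paired analysis was made, because the columns could not be matched to samples. With 1 library for each genotype and age, and 1 set of cluster labels, how far a new clustering would change the clusters was not tested.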
